A study of Drosophila melanogaster with 40 samples.

Results

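Frost (Fst), Materazzi (mat) and CG31106 are 3 genes of Drosophila melanogaster, and they were chosen by name from the 17609 genes of a count table because their RNA rose late in recovery from heat shock. The rise that chose them was the one between 0 h and 8 h after the heat shock, so that contrast is described here without a test. All 3 were found in the table, and all 3 passed the filter on low counts together with 11449 genes in all. RNA of whole flies was read at the 3' end in 40 libraries. In the ablated flies the insulin-producing cells, brain neurons that secrete insulin-like peptides, had been removed, and wild-type flies kept them. Old and young ablated flies gave 7 libraries each, namely climbers at 0, 1, 2, 4, 6 and 8 h after the heat shock and an unheated control at 4 h. Old and young flies of the wild type gave 13 each, namely non-climbers and climbers at the same 6 hours and an unheated control at 4 h. Climbers and non-climbers were told apart by whether flies walked upwards in a climbing test after the heat shock, and controls were not tested for climbing. The method of ablation, the sex, the age in days and the number of flies per library were not given in the sources used here. Each condition had 1 library, so a p-value sets an effect against what is left over by a model that adds up genotype with age, hour and behaviour, and not against replicate flies.

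Heat shock first induces chaperones, the proteins that refold or hold other proteins, and many other genes respond only while animals recover. Fst encodes a secreted protein with mucin-like repeats and is best known in flies as a gene induced during recovery from cold. The protein of mat is a stress-responsive lipid-binding protein of the haemolymph, which in flies has been linked to the clearance of damaged lipids by the Malpighian tubules, the renal organs. CG31106 encodes a predicted membrane transporter. In RNA from whole bodies, fewer cells of a type and less RNA per cell cannot be told apart.

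In the dm6 genome build, Fst (FBgn0037724) lies on chromosome 3R, from 9644978 to 9646154 on the minus strand. It has 1 exon, which codes for 286 amino acids and ends in a 3' UTR of 289 bases, and it sits inside an intron of Dh44 on the opposite strand without touching an exon of another gene. The gene mat (FBgn0035176) lies on chromosome 3L, from 902898 to 903810 on the plus strand, with 1 exon and 238 codons, and overlaps no other gene. CG31106 (FBgn0051106) lies on chromosome 3R, from 25216297 to 25218708 on the plus strand, with 9 exons and 513 codons, and also overlaps no other gene. None of the 5 tested genes around them passed the threshold between 6 h and 1 h after heat shock. Dh44, a diuretic hormone gene around Fst, differed by 1.06 ± 0.63 log2 units (edgeR quasi-likelihood, adjusted p = 0.417), and by 1.86 ± 0.81 from the controls at 4 h (adjusted p = 0.321). Whether the counting used strand was not given in the sources used here, so reads of Fst and of an unspliced Dh44 transcript may not be told apart. CG31103, which starts 609 bases beyond the end of CG31106, differed by 0.66 ± 0.21 (edgeR, adjusted p = 0.0943). The others were Scm, Dhc1 and Saysd1.

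Library totals ran from 11714961 to 48747409 counts. The 3 genes were counted in every library, Fst with 214 to 5331 counts, mat with 93 to 5585 and CG31106 with 29 to 700, so counting error was widest for CG31106. Its lowest level, 1.35 CPM (counts scaled to a fixed library total, with TMM factors) from 29 counts in wild-type old non-climbers at 0 h, had an exact 95% Poisson interval of 0.904 to 1.94 CPM, which covers counting error only. Ilp2, Ilp3 and Ilp5, insulin-like peptides that the missing cells would secrete, together reached 0.220 ± 0.305 CPM in ablated libraries (SD, n = 14) and 2.26 ± 0.787 CPM in wild-type libraries (SD, n = 26). A heat shock index, averaging log2 CPM over 11 heat shock genes, lay between 5.51 and 9.58 in 35 of the 36 heat-shocked libraries. It went against the labels in 2 ablated young libraries: it was 3.30 in the library labelled 6 h after heat shock, and 5.80 in the library labelled control, against 2.94 to 4.75 in the other 3 controls. Tests that use these 2 libraries are given again without them where a call moved, and for some of the other values. In a principal component of 920 noncoding transcripts, 12 of the 14 ablated libraries lay apart, while the ablated young 0 h and 1 h libraries lay with the wild type. The changes of ablated young flies over hours cross this split, and its part in them was not tested. The 5 batches named in the labels follow genotype, age and hour.

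**Figure D1:**
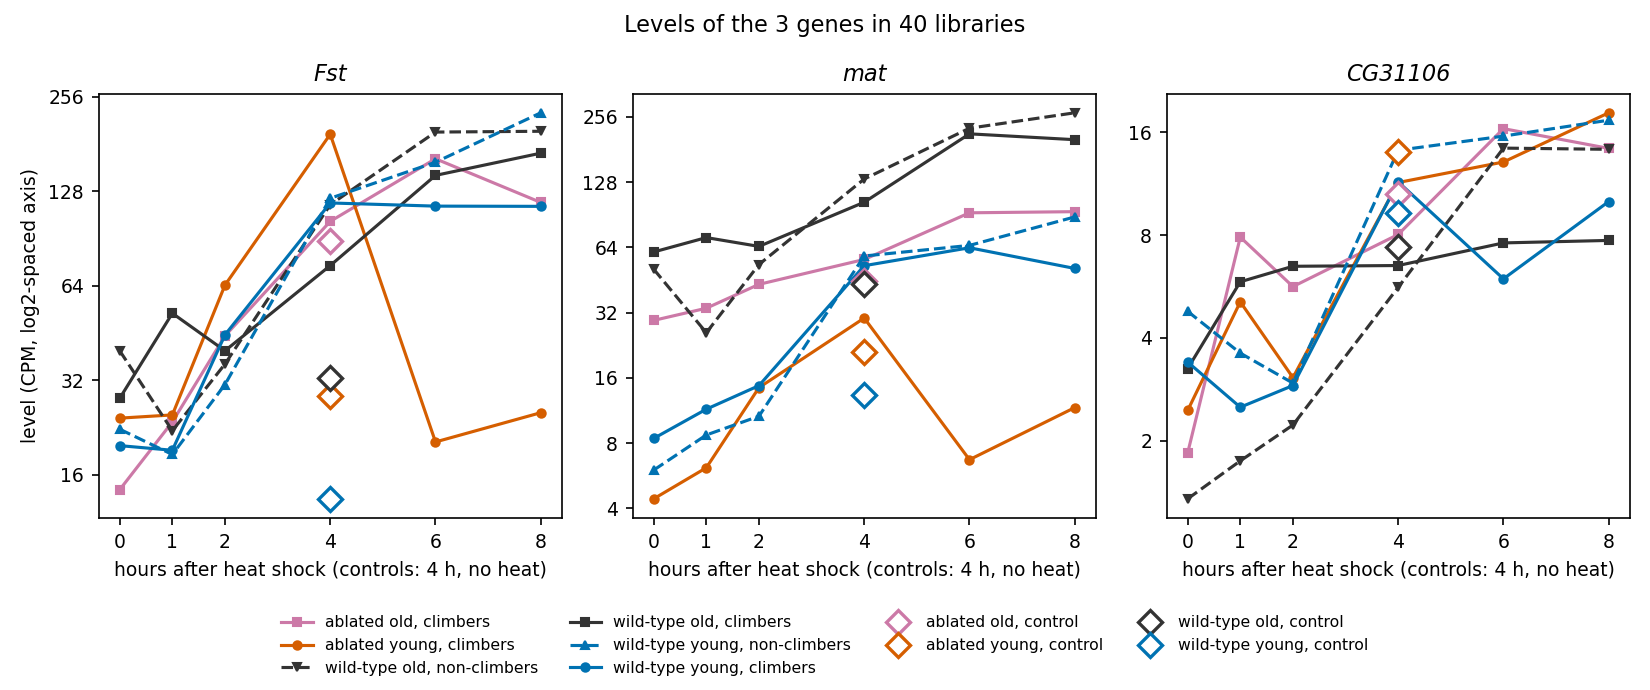
Level of each gene in CPM on a log2-spaced axis against hours after heat shock, with 1 library per point. Lines join the 6 heat-shocked series and open diamonds are the 4 unheated controls, all taken at 4 h; 5 of 6 series of Fst climb to between 114 and 227 CPM at 8 h, while that of ablated young flies drops back to 25.2 CPM.

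Fst stayed low for the first hour of recovery in all series but wild-type old climbers. In every series it was higher at 4 h than at 1 h. In ablated old climbers its level was 14.3, 23.5, 44.3, 103, 162 and 118 CPM at 0, 1, 2, 4, 6 and 8 h. In ablated young climbers it was 24.2, 24.8, 64.2, 194, 20.3 and 25.2 CPM at the same hours. The old ablated series kept a high level to the end, whereas the young one peaked at 4 h and then lay at its starting level. Wild-type old non-climbers had 39.7, 22.1, 35.99, 116, 197 and 199 CPM of Fst, and wild-type old climbers had 27.99, 52.2, 39.7, 74.1, 144 and 169 CPM. Wild-type young non-climbers had 22.3, 18.5, 31.0, 122, 158 and 227 CPM, and wild-type young climbers had 19.8, 19.1, 44.6, 117, 114.7 and 114 CPM. Among wild-type flies only the young climbers levelled off after 4 h. The largest step between neighbouring sampled hours was that from 2 to 4 h in 5 of 6 series, the exception being wild-type old climbers, whose largest step was from 4 to 6 h. Steps after 2 h span 2 hours and earlier ones 1 hour, here and for mat, so their sizes are not rates.

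The onset of Fst was taken as the first hour from which the level was at least 2 times that of the 0 h library at that and every later hour. It came at 2 h in ablated old climbers and in wild-type young climbers, and at 4 h in wild-type old non-climbers, wild-type old climbers and wild-type young non-climbers. Ablated young climbers had no onset, since the 6 h and 8 h libraries were back near the 0 h level. At 8 h the level of Fst was 8.23 times that at 0 h in ablated old climbers and 1.04 times in ablated young climbers. It was 5.01 times in wild-type old non-climbers, 6.04 times in wild-type old climbers, 10.2 times in wild-type young non-climbers and 5.79 times in wild-type young climbers. The 6 h library of ablated young climbers is the one whose heat shock index went against its label, and the library labelled control of the same flies was also low, at 28.6 CPM. The 8 h library, with 25.2 CPM of Fst, had an index of 5.91, inside the range of the other heat-shocked libraries. That is near the 5.80 of the library labelled control of these flies, and the part of the heat shock itself in the low Fst at 8 h was not tested.

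The level of Fst in unheated flies differed widely. It was 88.9 CPM in the ablated old control, 28.6 CPM in the library labelled ablated young control, 32.4 CPM in the wild-type old control and 13.4 CPM in the wild-type young control. The heat-shocked ablated old libraries lay only 0.21 log2 units above their control at 4 h and 0.41 above it at 8 h, and that series never reached 2 times its control. At 4 h all 6 series stood above the control of their own genotype and age, by 0.21 log2 units in ablated old climbers at the least and by 3.18 in wild-type young non-climbers at the most. The 4 series whose 4 h library shared a batch with its control differed from it by 0.21 (ablated old climbers), 2.77 (ablated young climbers), 1.84 (wild-type old non-climbers) and 1.20 (wild-type old climbers).

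The gene mat followed a similar course at levels that differed with age. In ablated old climbers its level was 29.5, 33.6, 43.2, 56.3, 92.5 and 93.6 CPM at 0, 1, 2, 4, 6 and 8 h, and in ablated young climbers it was 4.43, 6.16, 14.4, 30.2, 6.71 and 11.7 CPM. As with Fst, the ablated young series peaked at 4 h. In wild-type old flies mat had 50.8, 25.9, 53.4, 132, 227 and 268 CPM in non-climbers and 61.0, 71.1, 64.7, 103, 214 and 201 CPM in climbers. In wild-type young flies it had 6.01, 8.73, 10.7, 58.4, 65.4 and 88.5 CPM in non-climbers and 8.41, 11.5, 14.7, 52.7, 63.8 and 51.2 CPM in climbers. The wild-type young series made one steep step from 2 to 4 h, of 5.48 times in non-climbers and 3.58 times in climbers. The old climbers of both genotypes made their largest step from 4 to 6 h.

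By the same definition the onset of mat came at 4 h in wild-type old non-climbers and in both wild-type young series, at 6 h in ablated old and wild-type old climbers, and at 8 h in ablated young climbers. In ablated young climbers mat was already 3.26 times its 0 h level at 2 h and 6.83 times at 4 h. Their onset at 8 h rests on the 6 h library, at 1.52 times, whose heat shock index went against its label. The level at 8 h was 3.18 times that at 0 h in ablated old climbers, 2.64 times in ablated young climbers, 5.27 times in wild-type old non-climbers, 3.30 times in wild-type old climbers, 14.7 times in wild-type young non-climbers and 6.09 times in wild-type young climbers. The controls held 44.6 CPM (ablated old), 21.1 CPM (library labelled ablated young), 43.3 CPM (wild-type old) and 13.4 CPM (wild-type young). All 6 series were above their control at 4 h, and 5 of 6 at 6 h and at 8 h, the exception being ablated young climbers.

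Relative to controls, CG31106 lay below the other 2 genes at both ends of the course. It was low just after the heat shock and climbed back to about the level of unheated flies. Its fitted difference from the controls was -1.84 log2 units at 0 h and 0.44 at 8 h. Those of Fst were -0.73 and 1.75, and those of mat were -0.92 and 1.36. At 0 h CG31106 lay above its control in 0 of 6 series, Fst in 3 and mat in 2, so a low start was not its alone. In ablated old climbers it had 1.84, 7.90, 5.65, 8.04, 16.4 and 14.4 CPM at 0, 1, 2, 4, 6 and 8 h, and in ablated young climbers 2.45, 5.10, 3.06, 11.4, 13.1 and 18.3 CPM. Both ablated series ended far above their 0 h level. In wild-type old flies it had 1.35, 1.74, 2.22, 5.63, 14.4 and 14.3 CPM in non-climbers and 3.25, 5.84, 6.49, 6.52, 7.59 and 7.72 CPM in climbers. In wild-type young flies it had 4.78, 3.61, 2.95, 14.2, 15.6 and 17.4 CPM in non-climbers and 3.40, 2.51, 2.90, 11.5, 5.96 and 10.04 CPM in climbers. The controls held 10.6 CPM (ablated old), 14.03 CPM (library labelled ablated young), 7.36 CPM (wild-type old) and 9.32 CPM (wild-type young). At 0, 1 and 2 h none of the 6 series reached its control, and at 8 h all 6 lay above it, by 0.07 to 0.96 log2 units. No series stayed at 2 times its control or more.

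The onset of CG31106 against its own 0 h library ran from 1 h to 8 h. It came at 1 h in ablated old climbers, at 8 h in wild-type young climbers and at 4 h in the other 4 series. In wild-type young climbers the level was already 3.37 times that at 0 h by 4 h. Their onset at 8 h rests on the 6 h library, at 1.75 times. In wild-type old climbers the level was 1.99 times at 2 h and 2.00 times at 4 h, so their onset lay at the edge of the threshold. The level at 8 h was 7.81 times that at 0 h in ablated old climbers, 7.45 times in ablated young climbers, 10.6 times in wild-type old non-climbers, 2.37 times in wild-type old climbers, 3.63 times in wild-type young non-climbers and 2.95 times in wild-type young climbers. In ablated young climbers CG31106 stayed up to 8 h, while Fst and mat dropped after 4 h. The 6 h library had a heat shock index against its label, and the 8 h index, 5.91, was near the 5.80 of the library labelled control. CG31106 was 13.1 CPM at 6 h and 18.3 CPM at 8 h, beside 14.03 CPM in that library labelled control. The part of the heat shock itself in these 2 values was not tested.

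In the additive model the 3 rises between 0 h and 8 h, which chose the genes, were 2.48 ± 0.47 log2 units for Fst, 2.28 ± 0.40 for mat and 2.28 ± 0.32 for CG31106 (fitted values with standard errors). They ranked 67, 85 and 86 among 11449 genes, of which 6.46% were called higher and 4.03% lower at 8 h by edgeR with an adjusted p under 0.05. No test is given for these values, because they picked the genes.

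The difference between 6 h and 1 h was fitted in the 28 libraries left after all 0 h and 8 h libraries were taken out. The genes were picked as late risers with the results of all hours known, so these p-values set the size of the change against the scatter and are no independent support for a late rise. Fst was 2.34 ± 0.48 log2 units higher at 6 h than at 1 h (edgeR quasi-likelihood, Benjamini-Hochberg adjusted p = 0.00814), mat 2.08 ± 0.41 (adjusted p = 0.00631) and CG31106 1.54 ± 0.31 (adjusted p = 0.00488). Of 11199 genes tested, 2.7% were called higher and 0.777% lower in this comparison, and the 3 ranked 39, 52 and 137 by size. The 6 h level exceeded the 1 h level in 5 of 6 series for Fst and in 6 of 6 for mat and for CG31106. Within the 3 series whose 1 h and 6 h libraries shared a batch (ablated old, ablated young and wild-type old climbers) the log2 differences were 2.79, -0.29 and 1.46 for Fst, 1.46, 0.12 and 1.59 for mat, and 1.06, 1.36 and 0.38 for CG31106. With batch as a term none of the 3 passed the threshold, with differences of 2.27 for Fst (edgeR, adjusted p = 0.106), 1.83 for mat (adjusted p = 0.110) and 1.37 for CG31106 (adjusted p = 0.0749). Without the 2 ablated young libraries whose heat shock index went against their labels, the differences were 2.64 for Fst (edgeR, adjusted p = 0.000205), 2.33 for mat (adjusted p = 8.9e-05) and 1.55 for CG31106 (adjusted p = 0.00605).

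**Figure D2:**
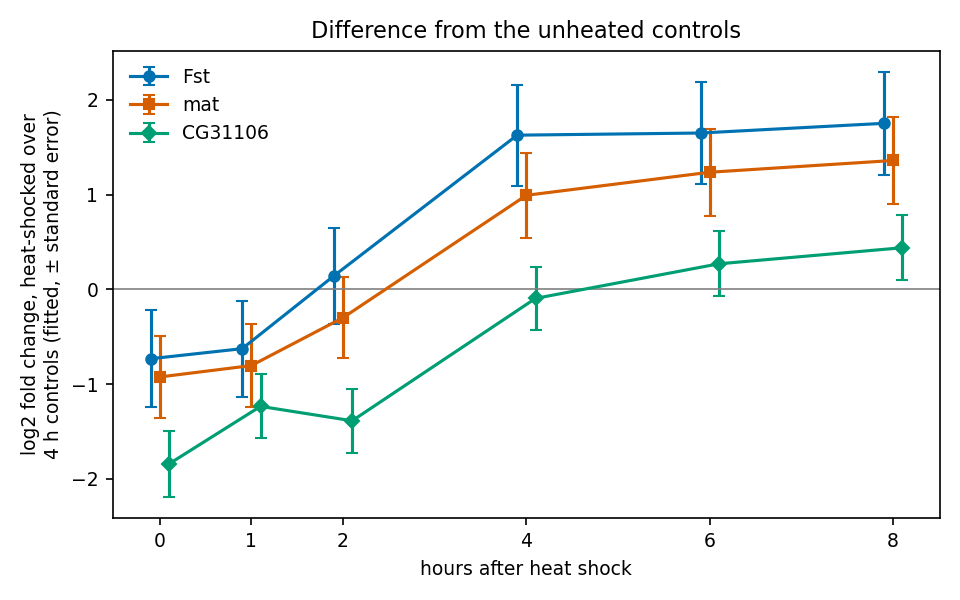
Fitted log2 fold change of each gene in heat-shocked libraries over the 4 unheated controls, by hour after heat shock, with standard errors as bars, from the additive model of 40 libraries. CG31106 starts 1.84 log2 units below the controls at 0 h and ends near them. Fst and mat start at -0.73 and -0.92 and end 1.75 and 1.36 above the controls at 8 h.

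Set against the 4 unheated controls, which were all collected at 4 h, the 3 genes parted. Every hour used the same controls, so these values are not independent of each other. The genes were picked as late risers with the results of all hours known. The p-values below are therefore no independent support for a low early or a high late level. CG31106 was lower than in controls at 1 h, by -1.23 ± 0.34 log2 units (edgeR quasi-likelihood, adjusted p = 0.0471), where 0.961% of 11449 genes were called higher and 1.08% lower. It was lower at 2 h too, by -1.39 ± 0.34 (edgeR, adjusted p = 0.0275), where 0.996% were called higher and 0.376% lower. The first of these calls was lost with batch as a term (edgeR, adjusted p = 0.0599), and both were lost without the library labelled ablated young control, at -1.09 for 1 h (edgeR, adjusted p = 0.156) and -1.25 for 2 h (edgeR, adjusted p = 0.0705). By 4 h the difference of CG31106 was -0.09 ± 0.34 (edgeR, adjusted p = 0.943) and by 6 h it was 0.27 ± 0.34 (edgeR, adjusted p = 0.915).

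Fst and mat showed no call against the controls at any of the 4 hours tested. At 1 h Fst differed by -0.62 ± 0.51 log2 units (edgeR, adjusted p = 0.561) and mat by -0.80 ± 0.44 (adjusted p = 0.362), and at 2 h by 0.14 ± 0.51 (adjusted p = 0.949) and -0.30 ± 0.43 (adjusted p = 0.863). At 4 h Fst differed by 1.63 ± 0.53 (edgeR, adjusted p = 0.158) and mat by 0.99 ± 0.45 (adjusted p = 0.341), where 0.62% of genes were called higher and 0.148% lower. At 6 h the differences were 1.65 ± 0.54 for Fst (edgeR, adjusted p = 0.277) and 1.24 ± 0.46 for mat (adjusted p = 0.365), where 0.0961% were called higher and 0.0175% lower. The values depended on single controls. Without the ablated old control, which had the most Fst, Fst differed by 0.05 at 1 h (edgeR, adjusted p = 0.975), 0.82 at 2 h (adjusted p = 0.621), 2.30 at 4 h (adjusted p = 0.0979) and 2.37 at 6 h (adjusted p = 0.200). Without the library labelled ablated young control, mat differed by -0.28 at 1 h (edgeR, adjusted p = 0.846), 0.26 at 2 h (adjusted p = 0.889), 1.56 at 4 h (adjusted p = 0.0812) and 1.75 at 6 h (adjusted p = 0.0783). With each hour or control left out in turn, Fst ranged from -0.93 to 0.05 at 1 h, from -0.16 to 0.82 at 2 h, from 1.32 to 2.30 at 4 h and from 1.34 to 2.37 at 6 h. DESeq2 called Fst at 4 h (1.67 log2 units, adjusted p = 0.0342). Without the 2 ablated young libraries named above, edgeR called mat at 4 h (1.499, adjusted p = 0.0457) and at 6 h (1.94, adjusted p = 0.00832). Without the same 2 libraries Fst differed by -0.78 at 1 h, -0.04 at 2 h and 1.44 at 4 h, with no call. Because the genes were picked as late risers, calls at 4 h and 6 h are no independent support for a high late level. The values at 0 h and 8 h, which used libraries that chose the genes, were -0.73 ± 0.51 and 1.75 ± 0.54 for Fst, -0.92 ± 0.44 and 1.36 ± 0.46 for mat, and -1.84 ± 0.34 and 0.44 ± 0.34 for CG31106.

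**Figure D3:**
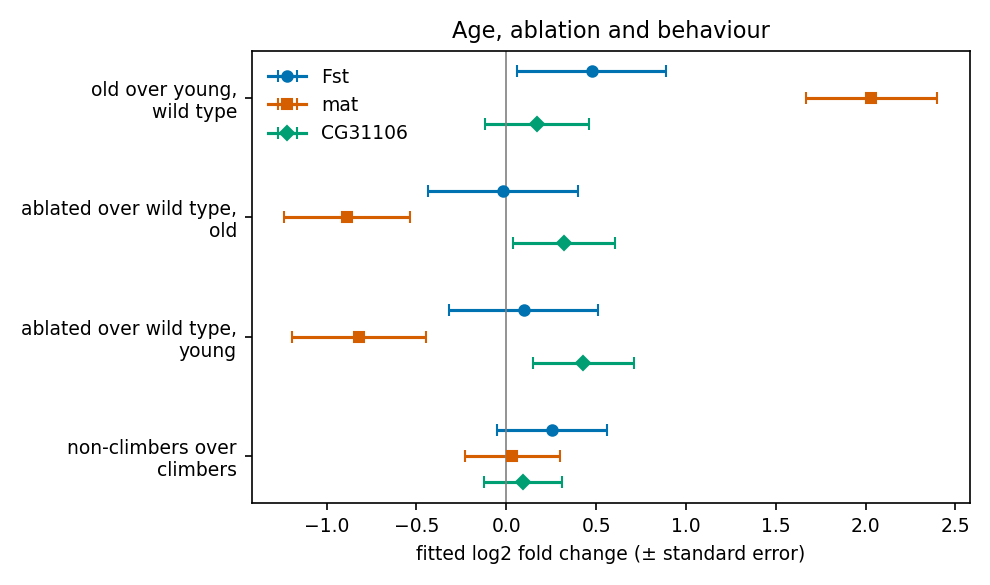
Fitted log2 fold changes of the 3 genes, averaged over hours, with standard errors as bars. They are for old over young wild-type climbers and controls, ablated over wild-type climbers and controls at each age, and non-climbers over climbers. The difference of mat with age, 2.03 log2 units, stands apart from the other bars.

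The level of mat was higher in old flies. In the wild type it was 2.03 ± 0.37 log2 units higher in old than in young flies (edgeR quasi-likelihood, adjusted p = 0.000142), where 11.8% of 11449 genes were called higher and 11.7% lower with age. Non-climbers had terms of their own at each age in this model, so the fitted age difference is that of climbers and controls. It was higher in the old library in 13 of 13 pairs of the same hour and behaviour, by 0.97 to 3.08 log2 units and by a median of 3.47 times. In ablated flies it was higher in the old library in 7 of 7 pairs, by 0.90 to 3.78 log2 units, and in 5 of 5 pairs that held neither ablated young library in doubt, by 0.90 to 3.00. No old and young wild-type libraries of the same hour shared a batch, and with batch as a term the difference was 1.84 and no longer passed (edgeR, adjusted p = 0.367). Fst differed by 0.47 ± 0.41 (edgeR, adjusted p = 0.447) and was higher in the old library in 9 of 13 pairs. CG31106 differed by 0.17 ± 0.29 in climbers and controls (edgeR, adjusted p = 0.718). Over the 13 pairs, which include non-climbers, it was higher in the old library in 3, with a median of -0.34 log2 units.

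The size of the rise was compared between ages as the slope of log2 level on log2 of the hour plus 1, in the 24 heat-shocked wild-type libraries. The slope in old minus young flies was -0.45 ± 0.21 per unit for mat (edgeR, adjusted p = 0.607), -0.23 ± 0.20 for Fst (adjusted p = 0.833) and 0.12 ± 0.24 for CG31106 (adjusted p = 0.937). None of the 3 passed, and 0.00913% of 10950 genes were called higher and 0.0365% lower.

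Ablation of the insulin-producing cells was compared at each age. In old flies mat was lower in ablated than in wild-type flies by -0.88 ± 0.35 log2 units (edgeR, adjusted p = 0.0325) and was lower in 6 of 7 pairs of the same hour, with a median ratio of 0.483. By the same rule 29.9% of genes were called higher and 27% lower, so such a call is common in this contrast. With batch as a term the value turned to 0.30 (edgeR, adjusted p = 1), and no ablated and wild-type libraries of the same age and hour shared a batch. With a term for the 2 sets into which the libraries fell by transcripts without protein coding, chosen after seeing the data, it was -1.36 (edgeR, adjusted p = 0.439). In young flies mat differed by -0.82 ± 0.37 (edgeR, adjusted p = 0.0906), where 18.2% of genes were called higher and 14.8% lower. Without the library labelled ablated young control that value was -1.12 and passed (edgeR, adjusted p = 0.0237), and without both ablated young libraries in doubt it was -0.85 and did not (edgeR, adjusted p = 0.0715).

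Fst and CG31106 showed no call with ablation. Fst differed by -0.02 ± 0.42 log2 units in old flies (edgeR, adjusted p = 0.974) and by 0.10 ± 0.42 in young flies (adjusted p = 0.886). CG31106 differed by 0.32 ± 0.28 in old flies (edgeR, adjusted p = 0.350) and by 0.43 ± 0.28 in young flies (adjusted p = 0.256). The slope over hours in ablated minus wild-type climbers was -0.07 ± 0.34 for Fst (edgeR, adjusted p = 0.938), -0.26 ± 0.24 for mat (adjusted p = 0.559) and 0.41 ± 0.18 for CG31106 (adjusted p = 0.169), where 2.96% of 11467 genes were called higher and 5.41% lower. Without both ablated young libraries in doubt, Fst differed by 0.43 in young flies (edgeR, adjusted p = 0.480), and the slopes were 0.07 for Fst (edgeR, adjusted p = 0.933), -0.15 for mat (adjusted p = 0.743) and 0.41 for CG31106 (adjusted p = 0.187).

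Non-climbers and climbers could be compared in 12 pairs of wild-type libraries of the same age and hour, 11 of them within a batch, the exception being old flies at 1 h. Averaged over hours, Fst differed by 0.25 ± 0.30 log2 units, mat by 0.03 ± 0.26 and CG31106 by 0.09 ± 0.22 (edgeR, adjusted p = 1 for each). Of 11449 genes 0% were called in either direction by edgeR, 429 had an unadjusted p under 0.05, and DESeq2 called 1. The level was higher in the non-climber library in 8 of 12 pairs for Fst, in 6 for mat and in 8 for CG31106.

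The direction of these pairs changed with the hour. At 0, 1 and 2 h mat was lower in the non-climber library in 6 of 6 pairs, by -0.26 to -1.46 log2 units, and at 4, 6 and 8 h it was higher in 6 of 6, by 0.04 to 0.79. The -1.46 came from old flies at 1 h, the pair across batches, and the other early pairs ran from -0.26 to -0.49. Fst was higher in non-climbers in 2 of 6 early pairs and in 6 of 6 late ones, the latest and widest being 0.99 in young flies at 8 h. CG31106 was lower in old non-climbers at 0, 1, 2 and 4 h, by -1.27, -1.74, -1.55 and -0.21, and higher at 6 and 8 h, by 0.92 and 0.89. Its -1.74 at 1 h came from the same pair across batches. In young flies CG31106 was higher in non-climbers in 6 of 6 pairs, by 0.02 to 1.39. The difference of non-climbers from climbers in old minus young flies, averaged over hours, was -0.92 ± 0.42 for CG31106 (edgeR, adjusted p = 1), a contrast chosen after these values were seen. The change with the hour was noticed in the values and then tested as a difference in slope, non-climbers minus climbers. This difference in slope was 0.15 ± 0.21 for Fst (edgeR, adjusted p = 1), 0.31 ± 0.21 for mat (adjusted p = 1) and 0.52 ± 0.20 for CG31106 (adjusted p = 0.963). None passed, and edgeR called 0% of 11330 genes, 512 of which had an unadjusted p under 0.05, while DESeq2 called 11.

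**Figure D4:**
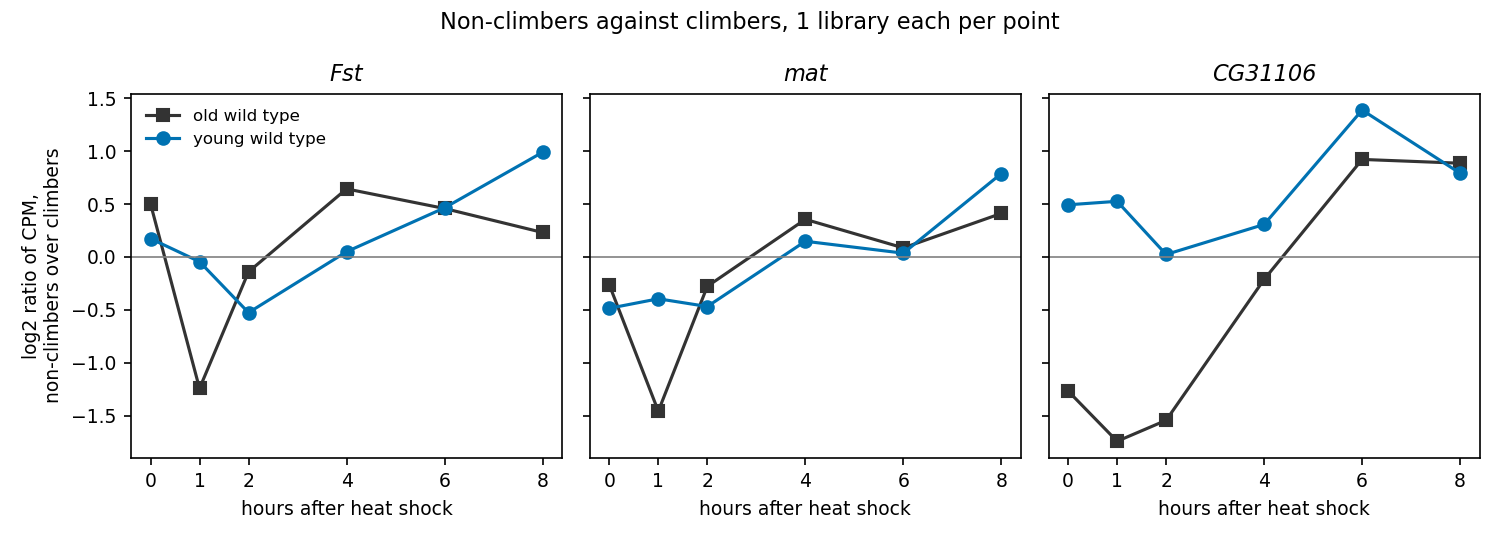
Log2 ratio of the level in non-climbers over climbers for each gene against hours after heat shock, in old and in young wild-type flies, with 1 library of each kind per point. Points of mat lie below 0 at 0 to 2 h and above 0 at 4 to 8 h at both ages.

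The 3 genes were compared with each other and with the rest of the table over the 40 libraries, as a description across libraries that share hours, batches and depth. All 3 were picked as late risers over these same hours, so correlations among them follow in part from that choice and are no support for a link. Fst and mat had a Pearson correlation of log2 CPM of 0.768 over 40 libraries and of 0.976 within old and 0.948 within young wild-type libraries, and of 0.899 within old and 0.749 within young ablated libraries. CG31106 had a correlation of 0.575 with Fst and of 0.378 with mat over the 40 libraries, and of 0.662 and 0.464 over the 38 without the 2 ablated young libraries in doubt. Its correlation with Fst was 0.868 in old and -0.003 in young ablated libraries, and 0.764 in old and 0.746 in young wild-type libraries. Its correlation with mat was 0.808 in old and 0.475 in young ablated libraries, and 0.785 in old and 0.815 in young wild-type libraries. Among the 7174 genes averaging 3 or more on the log2 CPM scale, the 3 most like Fst were Rab7, a GTPase of late endosomes (0.878), Atg8a, a protein of autophagosomes (0.856), and Chmp1, a subunit of the ESCRT-III membrane-cutting complex (0.851). The 3 most like mat were CG13177 (0.927), CG15739 (0.919) and scb, an integrin alpha subunit (0.915). In the same rankings mat was number 12 for Fst, and Fst was number 67 for mat. Those most like CG31106 were CG9628 (0.767), CG3662 (0.762) and atilla, a small surface protein known as a marker of lamellocytes, a blood cell type of larvae (0.758).

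These 9 genes were picked by their likeness over the same libraries, so their values are a description and no test is given. Between 6 h and 1 h the fitted log2 difference was 0.48 ± 0.09 for Rab7, 0.52 ± 0.08 for Atg8a and 0.44 ± 0.08 for Chmp1. It was 1.34 ± 0.17 for CG13177, 1.06 ± 0.22 for CG15739 and 0.49 ± 0.17 for scb. It was 0.59 ± 0.13 for CG9628, 0.43 ± 0.09 for CG3662 and 0.45 ± 0.11 for atilla, each value with its standard error. In old against young wild-type climbers and controls the fitted log2 difference was 1.07 for CG13177, 1.16 for CG15739 and 0.93 for scb, the 3 genes most like mat.

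Genes listed for a related function were read against the 2.7% of all genes called higher and the 0.777% called lower between 6 h and 1 h. Of 12 tested genes known for responses to cold or desiccation, many of them heat shock proteins, 0 rose and 5 fell between 6 h and 1 h, with a median of -1.44 log2 units against -0.02 over all genes. The small heat shock protein Hsp26 fell by 1.49 ± 0.12 log2 units, the chaperone partner DnaJ-1 by 1.39 ± 0.12, Hsp83, the fly Hsp90, by 0.80 ± 0.07, Hsp67Ba by 1.91 ± 0.33, and the co-chaperone starvin (stv) by 1.70 ± 0.45, each past the threshold in edgeR. At 1 h and at 2 h 8 of the 12 were higher than in controls, where 0.961% and 0.996% of all genes were called higher. Of 8 haemolymph lipid carriers and their receptors, the group nearest to mat in function, 0 rose and 0 fell between 6 h and 1 h, with a median of 0.06. With age in wild type 2 of the 8 were higher, Apoltp by 0.72 ± 0.11 and NLaz by 0.40 ± 0.10 log2 units, both past the threshold in edgeR. In the age contrast 11.8% of all genes were called higher and 11.7% lower, so a count this small lies near that share. Of 5 tested genes for other predicted transporters, out of 9 listed, 0 rose and 0 fell between 6 h and 1 h, with a median of 0.14. In lists this small a count of 0 between 6 h and 1 h lies near the 2.7% and 0.777% of all genes.

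Markers of tissues that make up a whole fly were read beside the rises. Between 6 h and 1 h 2.7% of all genes were called higher and 0.777% lower. All markers of the 6 tissue lists that entered the sums had counts in some library of every hour, and none was at 0 throughout an hour. Of 10 Malpighian tubule genes, 0 rose and 0 fell between 6 h and 1 h, and their summed level had medians of 280 to 302 CPM over the 6 hours and the controls. Of 7 fat body genes 1 rose between 6 h and 1 h, the lipid droplet gene Lsd-1, by 1.28 ± 0.28 (edgeR, adjusted p = 0.00989), while the summed level of the 7 ran from 268 to 669 CPM at 6 h and from 272 to 533 CPM at 1 h. Of 9 gut and 4 muscle genes 0 rose and 0 fell. Of 7 haemocyte genes 1 fell, the collagen gene Col4a1, by 0.68 ± 0.14 log2 units, and of 6 ovary genes 1 fell, the eggshell gene Vm26Aa, by 1.31 ± 0.36. The summed haemocyte markers ran from 55.4 to 163 CPM at 6 h and from 90.8 to 156 CPM at 1 h. The part of any of these tissues in the course of Fst, mat and CG31106 was not tested.

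In the wild-type age contrast, in which mat was higher in old flies and 11.8% of all genes were called higher and 11.7% lower, markers of several tissues passed the threshold in edgeR. Of 10 tubule genes 2 were higher in old flies, Uro, a urate oxidase of the tubule, by 1.27 ± 0.19 log2 units and Irk2 by 0.57 ± 0.20. The 1 that was lower was Prip, by -0.15 ± 0.06. Of 7 haemocyte genes 2 were lower, the prophenoloxidases PPO1, by -2.13 ± 0.27, and PPO2, by -2.88 ± 0.24. Of 9 gut genes 1 was higher, the sterol uptake gene Npc1b, by 1.16 ± 0.34, and 3 were lower, with the lysozyme LysB by -2.15 ± 0.49 and the trypsin betaTry by -1.60 ± 0.23. Of 6 ovary genes 1 was higher, osk, by 1.11 ± 0.36, and 3 were lower, the yolk proteins Yp1, Yp2 and Yp3, by -1.10, -1.09 and -1.02. Of 7 fat body genes 1 was lower, the storage protein Lsp2, by -1.86 ± 0.50, and of 4 muscle genes 1, the troponin C TpnC4, by -2.36 ± 0.57. In lists of 4 to 10 genes a count of 1 or 2 lies near the shares over all genes. The part of these tissues in the age difference of mat was not tested.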

How the data were processed

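The authors deposited raw counts per gene, 1 column per library, from read 1 of a 3' mRNA kit, per the labels' protocols. The submitters' processing notes name STAR 2.7.5a and the dm6 build. The counting tool, its strand setting and any molecular identifiers were not given in the sources used here. Genes were matched by FlyBase identifier, and positions came from an annotation on dm6 coordinates. Counts were used as deposited.

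Tests used edgeR 4.0.16 in R 4.3.3 (robust quasi-likelihood, TMM factors, filterByExpr, Benjamini-Hochberg adjustment over all genes tested, threshold 0.05). The model of 40 libraries held genotype with age, state (control or hour), and non-climbers at each age, with 28 residual degrees of freedom. It had 18 in the 28 libraries without 0 h and 8 h, 18 for the slope by age and 16 for the slopes by ablation and by behaviour. The effect of an hour was taken as the same for every genotype and age. Levels are CPM scaled by TMM, and log2 CPM for correlations used a prior count of 2. The fit was tested on simulated data.

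The genes named were Fst, mat and CG31106, the 3 genes most correlated with each, and list members past a threshold, up to 3 per list and direction. Beyond that rule, all 5 falling cold and desiccation genes were named, and chromosomal neighbours and the slope by behaviour were added after values were seen. The members and lists were chosen with earlier results of these data known. Alternatives were DESeq2 1.42.0, RLE factors, other count filters, batch or library set as a term, smaller sets of libraries, other onset thresholds and leaving out hours or controls. The library set split the libraries by principal component 1 of 920 noncoding transcripts, which held 26.8% of the variance and placed 12 ablated libraries apart from the 28 others, among them the ablated young 0 h and 1 h libraries.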

Additional observations from a re-analysis of the deposited data

Results flagged for a closer look

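For each of the 3 genes, the 6 series at each hour and the 4 controls were screened, 21 sets in all, for a library far from the rest, of which chance flags about 1 in 20. The level of Fst in wild-type old climbers at 1 h, 52.2 CPM, was far above the other 5 series. The level of Fst in ablated young climbers at 6 h, 20.3 CPM, and at 8 h, 25.2 CPM, was far below the others. The level of mat in ablated young climbers at 6 h, 6.71 CPM, was also far below. The 6 h library had a heat shock index of 3.30, below that of every other heat-shocked library, and the part of this in its low Fst and mat was not tested. The 8 h library had an index of 5.91.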

How the results depend on the processing

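Of the alternatives recomputed for the 3 genes and their onsets, 542 kept their side of the threshold, 37 of them with the sign turned and neither value past it, 27 lost a call, 5 gained one, 1 reversed and 4 onset counts moved. CG31106 at 1 h against controls lost its call with RLE factors (-1.22), without a count filter (-1.21), with at least 10 counts in 10 libraries (-1.21), with batch (-1.24), and after dropping the library labelled ablated young control (-1.09) or without that and the 6 h library (-1.09). At 2 h it lost it without the control (-1.25) or both (-1.25). Fst at 4 h gained a call in DESeq2 (1.67), mat at 4 h (1.499) and at 6 h (1.94) without both libraries, and mat with ablation in young flies without the control (-1.12). Mat with age lost its call with batch (1.84). Mat with ablation in old flies lost it with the library set (-1.36) and reversed with batch (0.30). With batch the rise between 1 h and 6 h lost its call for Fst (2.27), mat (1.83) and CG31106 (1.37). The cause was not tested. With onset counted by 4 h, 3 times the 0 h level gave 3 series for Fst and 3 for CG31106, against 5 each at 2 times, 1.5 times gave 6 for mat, against 3, and 2 times the control gave 0 for CG31106.

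With each hour or control left out in turn, CG31106 ranged from -1.36 to -1.09 at 1 h and passed in 3 of 9 fits, and from -1.51 to -1.25 at 2 h (6 of 9). Mat with ablation ranged from -1.03 to -0.82 in old flies (5 of 10) and from -1.12 to -0.53 in young flies (1 of 10). The rise between 1 h and 6 h passed in 6 of 6 for each gene, and mat with age in 10 of 10 (1.87 to 2.20). The genes were picked as late risers, so the passes of that rise are no independent support for it.

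Counts over all genes moved with many settings. Heat at 1 h gave 234 calls and 449 in DESeq2, with 128 to 330 over the left-out sets. Heat at 2 h gave 157, against 354 in DESeq2, 243 without the control and 297 without both, with 78 to 243 over the left-out sets. Heat at 4 h gave 88, against 269 in DESeq2, 56 without a filter, 226 with batch, 277 and 379 without the doubted libraries, 146 in the 10 libraries of 4 h and 5 to 277 over the left-out sets. Heat at 6 h gave 13, against 101 in DESeq2, 1 with RLE factors, 1 without a filter, 28 with batch, 107 and 432 without the doubted libraries and 0 to 107 over the left-out sets. The rise between 1 h and 6 h gave 389, against 688 in DESeq2, 100 with batch and 592 without both. Age gave 2692 and 79 with batch. Ablation in old flies gave 6515, against 199 with batch and 510 with the library set, and in young flies 3779, against 202, 1727 and 2401 in young controls and climbers alone. The slope by age gave 5, against 38 in DESeq2, 3 on hours and 1 to 8 over the left-out sets. The slope by ablation gave 959, against 1 with batch, 452 on hours, 0 with the library set and 72 to 1164 over the left-out sets. The slope by behaviour gave 0, against 11 in DESeq2.

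The labels give no replicate numbers, so no block by replicate was run. For behaviour, a block for each pair of the same age and hour called 2 genes, against 0, and gave 0.15 for Fst (edgeR, adjusted p = 0.937), -0.09 for mat (adjusted p = 0.972) and 0.10 for CG31106 (adjusted p = 0.972). Controls at 4 h only leave heat and hour of collection together at the other hours, and CG31106, with the lowest counts, had the widest counting error.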
